A study of Mus musculus with 8 samples.

Results

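The histone genes of mouse leukaemia stem cells were described here, in a comparison of Nynrin-KO with WT cells. Members were chosen among 48500 genes by symbol and by detection. The rule took the replication-dependent histone genes under their older (Hist1h) or newer (H2ac, H2bc, H3c, H4c, H1f) names, with 5 variant genes, H2ax, H2az1, Macroh2a1, H3f3a and H3f3b, and selected on a value above 0 in at least 4 of the 8 libraries, whichever group they came from. Of 74 symbols that met the wording, H13 (a minor histocompatibility antigen gene) and H19 (a long non-coding RNA gene) are not histone genes and were set aside. Of the 72 histone genes, 5 were above 0 in too few libraries, and 67 were kept. These were 57 replication-dependent genes, the 5 variant genes, the linker replacement gene H1f0, and 4 germ cell or other genes (H1f6, H1f7, H1f8 and H3f4). Of the replication-dependent members 2, H2ac14 and Hist1h2al, are annotated as pseudogenes in GENCODE M21, although their symbols do not say so. The kept genes nearest the limit were Hist1h2al, H2bc7, H3c2 and H3f4, each above 0 in 5 libraries. Those just outside it were H2bc1, above 0 in 3 libraries, and H4c2, above 0 in 2.

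Both groups were leukaemia stem cells sorted from bone marrow as GFP+, c-Kit+ and Gr-1-, about 10000 cells a library, in a mouse model in which HOXA9 and MEIS1 drive the acute myeloid leukaemia. The 4 Nynrin-KO libraries (KO1 to KO4) came from Nynrin-/- leukaemias and the 4 WT libraries (WT1 to WT4) from Nynrin+/+ leukaemias. No ages, treatments or numbers of mice are stated, so the p-values reflect library-to-library spread, which may be technical. The values are FPKM, fragment counts scaled to transcript length and library depth.

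Histones package DNA into nucleosomes, each an octamer of the core histones H2A, H2B, H3 and H4, with the linker histone H1 bound where the DNA enters and leaves. The replication-dependent genes are made in bulk during S phase to package newly copied DNA. Their mRNAs end in a conserved stem-loop, bound by the protein SLBP, in place of a poly(A) tail. The variant, or replacement, histones H2A.Z, H2A.X, macroH2A and H3.3 are made outside S phase too, largely from polyadenylated mRNAs. The Smart-Seq V4 kit used for these libraries primes cDNA from poly(A) tails. The levels of replication-dependent genes are therefore those of the molecules the kit captured.

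The stem-loop is shown because it separates the replication-dependent mRNAs from most variant ones. It was searched by its consensus in the longest GENCODE M21 transcript of each member. It was present in 36 of the 57 replication-dependent models, 21 to 54 bases after the stop codon (median 31). Of the 21 models without a match, 11 stop within 30 bases of the stop codon, so that their ends could not be searched. Among the variant genes H2ax had a match. The stem-loops of 7 members follow 5′ to 3′, with the 16 bases of the hairpin in capitals and 5 bases on each side.
H2ac8: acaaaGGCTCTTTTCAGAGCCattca
Hist1h2ao: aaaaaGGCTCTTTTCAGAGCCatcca
H2bc8: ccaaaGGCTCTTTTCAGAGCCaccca
H4c4: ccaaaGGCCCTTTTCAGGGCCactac
H4c9: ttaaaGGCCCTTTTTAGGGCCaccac
H1f2: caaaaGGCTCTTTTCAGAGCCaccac
H2ax: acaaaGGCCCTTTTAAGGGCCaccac
The form of H2ac8, Hist1h2ao, H2bc8 and H1f2 was the commonest and occurred in 20 models. The form of H4c4 was found in 7, and that of H4c9 in 2.

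Promoters were taken from RefSeq (GRCm38.p6), with 250 bases before to 50 after each gene's start, and were matched for 51 of the 67 members. CCAAT is the box bound by the factor NF-Y, and TATAAA is the TATA box. Either motif was counted on both strands. CCAAT stood in 85.7% of 42 replication-dependent promoters and TATAAA in 61.9%, with both in 52.4%. Among 27025 promoters in all, the shares were 37.9%, 14.2% and 5.55%. A match here describes the letters and does not show a site in use. The promoters of H2ac8 (chr13:23571171-23571470, minus strand), of H4c4 (chr13:23581318-23581617, plus strand) and of the H3.3 gene H3f3b (chr11:116024455-116024754, minus strand) follow, with both motifs in capitals on either strand.
H2ac8: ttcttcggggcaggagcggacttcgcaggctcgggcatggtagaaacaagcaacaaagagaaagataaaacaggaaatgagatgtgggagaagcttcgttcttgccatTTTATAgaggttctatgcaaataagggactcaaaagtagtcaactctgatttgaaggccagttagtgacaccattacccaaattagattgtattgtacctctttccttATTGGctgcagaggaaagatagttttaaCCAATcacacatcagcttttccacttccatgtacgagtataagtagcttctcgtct
H4c4: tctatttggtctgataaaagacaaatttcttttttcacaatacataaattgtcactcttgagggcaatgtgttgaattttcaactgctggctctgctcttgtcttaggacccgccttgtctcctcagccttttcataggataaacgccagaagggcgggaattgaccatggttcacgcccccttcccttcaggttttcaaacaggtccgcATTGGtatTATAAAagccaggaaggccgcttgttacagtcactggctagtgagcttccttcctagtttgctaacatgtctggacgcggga
H3f3b: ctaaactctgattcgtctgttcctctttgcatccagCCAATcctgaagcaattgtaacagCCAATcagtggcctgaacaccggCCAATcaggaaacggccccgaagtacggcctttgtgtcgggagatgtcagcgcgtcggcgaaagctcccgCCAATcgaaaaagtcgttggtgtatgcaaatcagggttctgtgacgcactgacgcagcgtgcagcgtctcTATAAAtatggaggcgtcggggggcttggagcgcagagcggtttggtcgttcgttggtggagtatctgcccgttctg
The H2ac8 window also holds the start of H2bc8, an H2B gene on the other strand, 176 bases from the start of H2ac8. The TATAAA letters in that window read on the strand of H2bc8. CCAAT occurred in 95.7% of the 23 matched promoters of genes that were lower in Nynrin-KO at an adjusted p of 0.05, and in 70.6% of the 17 that were tested and did not pass, and TATAAA in 60.9% and 58.8%. The replication-dependent promoters without CCAAT were all of H4 genes. Among them H4c9 fell, and H4c6, H4c8, H4c11, H4c12 and H4f16 did not pass. The shares were not compared by a test. The variant set is small, with CCAAT in 3 and TATAAA in 1 of 4 promoters.

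Replication-dependent histone mRNAs were lower in the Nynrin-KO libraries. Their FPKM summed to 453, 392, 337 and 407 in KO1 to KO4, against 1363, 1112, 992 and 838 in WT1 to WT4, and the highest Nynrin-KO library stood well below the lowest WT library. The mean of 397 ± 48.1 FPKM in Nynrin-KO was 0.369 times the mean of 1076 ± 222 FPKM in WT (SD, n = 4 each). The sum without Hist1h2ao and Hist1h2ap, the most abundant members, was 0.384 times as high in Nynrin-KO. In these bulk libraries, fewer cells in S phase, less histone mRNA in each cell and a different mix of cell types cannot be told apart.

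Each gene was tested with limma on log2(FPKM + 1), with Benjamini-Hochberg adjustment over the 12524 genes that reached 1 FPKM in 4 or more libraries. A gene that passed an adjusted p of 0.05 is said to have fallen or risen. Of the 52 replication-dependent members that could be tested 29 fell and 0 rose, where 27.9% of all genes tested changed and 13.8% fell. Their median log2 change was -1.10, where that of all genes tested was -0.03. The fitted change was below 0 in 50 of the 52, and the groups did not overlap, with Nynrin-KO lower, in 31 (15.0% of all genes tested). With voom on whole reads recovered from the values the count that fell was 33, where 18.7% of all genes tested fell, and 0 rose. The other 5 replication-dependent members were too low to test. The filter acts on these counts, because 18 of the 52 reached 1 FPKM in fewer than 4 Nynrin-KO libraries, while 48 reached it in every WT library. The same 29 fell when the filter was a mean of at least 1 FPKM over the 8 libraries, which high WT values can also meet. Without a filter in the fit 21 of the 57 kept members fell, where 1.87% of all 48500 genes did. The 57 had met the rule's limit on detection and the 48500 had not, so these shares are not alike.

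**Figure D1:**
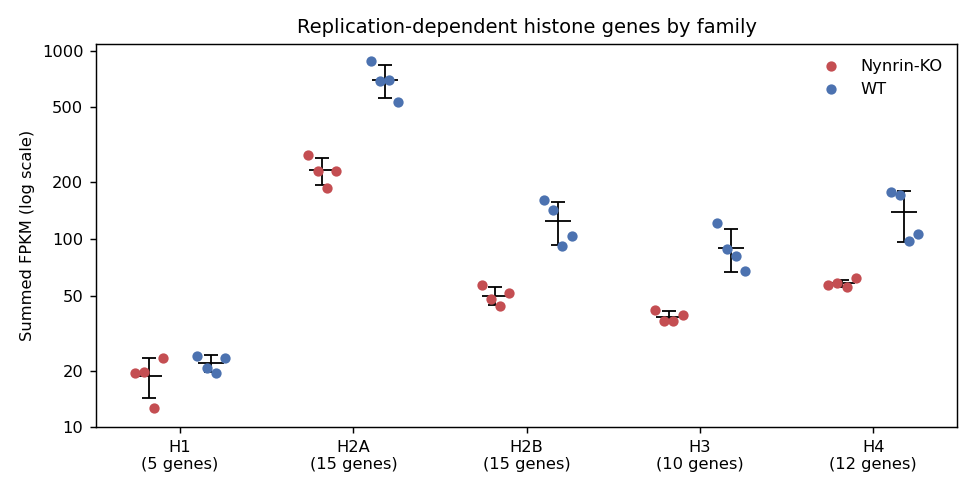
Summed FPKM of the replication-dependent members of each histone family (log axis) in the 4 Nynrin-KO (red) and 4 WT (blue) libraries, replicates 1 to 4 from left to right, with mean and SD in black. The core histone families H2A, H2B, H3 and H4 are lower in every Nynrin-KO library than in any WT library, and the H1 sums overlap.

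The H2A genes held the most abundant members. Of these genes 12 of the 14 tested fell, where 13.8% of all genes tested did, and their median log2 change was -1.42. The family summed to 278, 229, 188 and 231 FPKM in KO1 to KO4, against 878, 688, 701 and 537 FPKM in WT1 to WT4. The most abundant were Hist1h2ao and Hist1h2ap, H2A genes on chromosome 13. Hist1h2ao stood at 99.3, 66.7, 67.3 and 80.9 FPKM in Nynrin-KO, against 290, 215, 234 and 171 FPKM in WT. Hist1h2ap stood at 67.0, 52.6, 29.5 and 59.2 FPKM in Nynrin-KO, against 189, 152, 134 and 140 FPKM in WT. Neither gene overlapped between the groups, and they fell by 1.52 (SE 0.23, adjusted p = 0.00259) and 1.59 (SE 0.27, adjusted p = 0.00408) on the log2 scale. Of the 50-base windows of Hist1h2ao 93.5% also occur in another gene, and of those of Hist1h2ap 93.1%, so their reads may have been split among copies, and the level of each alone is uncertain.

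H2ac8 (GRCm38 chromosome 13, 23570517 to 23571220) had the smallest p of the members. Its values were 29.5, 32.6, 24.9 and 24.1 FPKM in KO1 to KO4, against 138, 107, 94.1 and 76.9 FPKM in WT1 to WT4. The lowest WT library stood far above the highest Nynrin-KO library. The log2 change was -1.85 (SE 0.22, adjusted p = 0.00154), and the ratio of the mean in Nynrin-KO to that in WT was 0.267. H2ac15 stood at 19.6, 17.9, 18.1 and 17.9 FPKM in Nynrin-KO, against 58.7, 65.8, 64.8 and 37.5 FPKM in WT, and fell by 1.54 (SE 0.21, adjusted p = 0.00198). H2ac4 stood at 16.3, 8.71, 9.26 and 9.72 FPKM in Nynrin-KO, against 55.2, 42.1, 32.3 and 26.7 FPKM in WT, and fell by 1.73 (adjusted p = 0.00319). All 3 kept the groups apart. H2ac11, H2ac7 and H2ac20 fell by 1.41, 1.70 and 1.19 (adjusted p = 0.00423, 0.00705 and 0.00734). The H2A genes that did not pass were Hist1h2an (log2 change -1.01, adjusted p = 0.121) and H2ac10 (-0.59, adjusted p = 0.134).

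Of the 13 H2B genes tested 7 fell, where 13.8% of all genes tested did, and their median log2 change was -0.99. H2bc4 and H2bc8 had the highest mean levels. H2bc4 stood at 13.7, 12.004, 8.996 and 10.3 FPKM in Nynrin-KO, against 49.1, 32.4, 17.2 and 27.5 FPKM in WT, and H2bc8 stood at 9.73, 9.19, 10.6 and 13.6 FPKM in Nynrin-KO, against 36.7, 29.0, 22.3 and 23.7 FPKM in WT. Both kept the groups apart, with log2 changes of -1.33 (SE 0.30, adjusted p = 0.0114) for H2bc4 and -1.28 (SE 0.21, adjusted p = 0.00336) for H2bc8. H2bc11 and H2bc3 fell by 1.09 and 1.34 (adjusted p = 0.00298 and 0.00585). H2bc6, by contrast, stood at 2.57, 3.25, 3.06 and 1.96 FPKM in Nynrin-KO, against 3.22, 3.61, 2.44 and 2.52 FPKM in WT, and the groups overlapped (log2 change -0.09, SE 0.19, adjusted p = 0.745). H2bc6 was named after its values were seen.

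**Figure D2:**
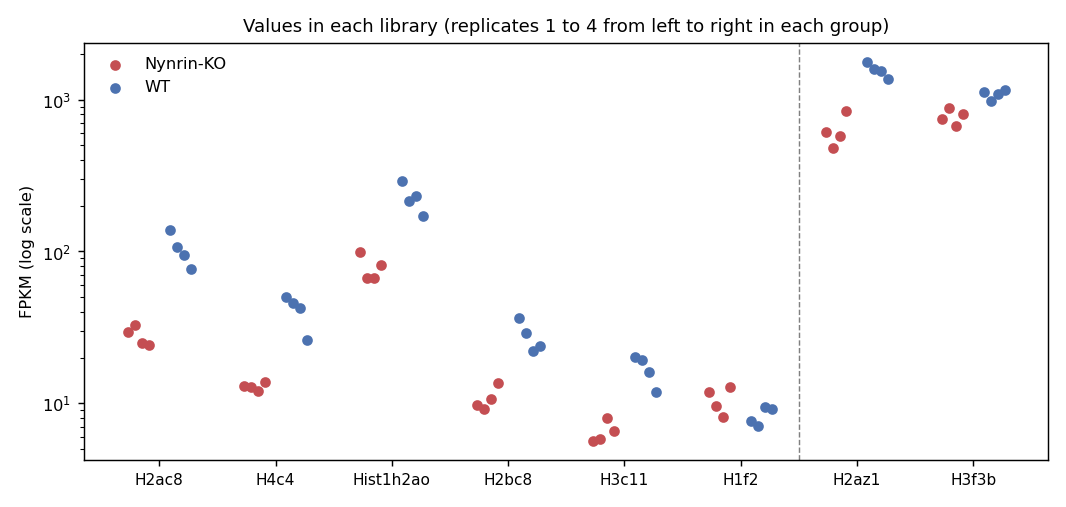
FPKM (log axis) of 6 replication-dependent genes, left of the dashed line, and of 2 variant genes, right of it, in the 4 Nynrin-KO (red) and 4 WT (blue) libraries. H1f2 overlaps between the groups, and the other 7 genes are lower in every Nynrin-KO library than in any WT library.

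H2A and H2B form a dimer before they enter the nucleosome, and many of their genes lie head to head. In 12 pairs of members, each an H2A and an H2B gene, the starts were at most 500 bases apart on opposite strands. Both genes were tested in 10 pairs. Both fell in 4 of these (H2ac8 and H2bc8, H2ac6 and H2bc4, H2ac11 and H2bc11, H2ac14 and H2bc14), exactly 1 fell in the other 6, and there was no pair in which neither fell. The H2A gene had the lower log2 change in 7 of the 10. H2ac14 is annotated as an unprocessed pseudogene, and its groups overlapped although it passed. For H2ac15 and H2bc15, 296 bases apart, the log2 changes were -1.54 and -0.76 (SE 0.64), and for H2ac12 and H2bc12, 302 bases apart, -1.43 and -0.55 (SE 0.44). The difference within a pair was not tested.

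Of the 9 replication-dependent H3 genes tested 7 fell, where 13.8% of all genes tested did, and their median log2 change was -1.14. H3c6, the gene with the highest mean, stood at 17.2, 13.3, 12.4 and 13.5 FPKM in Nynrin-KO, against 41.1, 23.8, 26.8 and 20.3 FPKM in WT. It fell by 0.90 (SE 0.23, adjusted p = 0.0196), a call lost with median ratio scaling (adjusted p = 0.0957), without a filter (adjusted p = 0.0766) and without KO2 (adjusted p = 0.0521). H3c11 stood at 5.65, 5.80, 7.99 and 6.61 FPKM in Nynrin-KO, against 20.3, 19.3, 16.1 and 11.9 FPKM in WT, and fell by 1.23 (SE 0.20, adjusted p = 0.00352). H3c10 was near its limit of detection in Nynrin-KO, at 1.03, 1.16, 0 and 0.848 FPKM from 4, 11, 0 and 10 reads, against 6.18, 4.13, 4.96 and 3.39 FPKM from 84, 12, 4 and 24 reads in WT. Its groups did not overlap (log2 change -1.72, SE 0.28, adjusted p = 0.00355), but the 0 in KO3 allows up to 3.995 FPKM, the level of 3 reads, at that depth.

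Of the 11 H4 genes tested 2 fell, where 13.8% of all genes tested did, and their median log2 change was -0.75. H4c4 (GRCm38 chromosome 13, 23581598 to 23582735) stood at 13.1, 12.8, 12.02 and 13.9 FPKM in Nynrin-KO, against 49.8, 45.8, 42.5 and 26.1 FPKM in WT. H4c9 stood at 16.8, 18.8, 16.6 and 19.2 FPKM in Nynrin-KO, against 51.2, 51.7, 27.3 and 33.7 FPKM in WT. Both held a narrow range in Nynrin-KO and did not overlap with WT, with log2 changes of -1.55 (SE 0.22, adjusted p = 0.00217) for H4c4 and -1.11 (SE 0.23, adjusted p = 0.00896) for H4c9. The other 9 H4 genes averaged at most 13.1 FPKM in WT and had log2 changes between -1.80 (Hist1h4n, SE 0.60, adjusted p = 0.0530) and 0.15 (H4c6, SE 0.49, adjusted p = 0.844). The H4 count depended on the shallowest libraries. It was 5 without WT3 and 7 of 11 without WT3 and KO3, and it also reached 4 with quantile normalization and 5 with voom or array weights. H4 summed to 57.0, 58.4, 55.4 and 61.8 FPKM in Nynrin-KO, against 178, 171, 97.6 and 107 FPKM in WT.

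**Figure D3:**
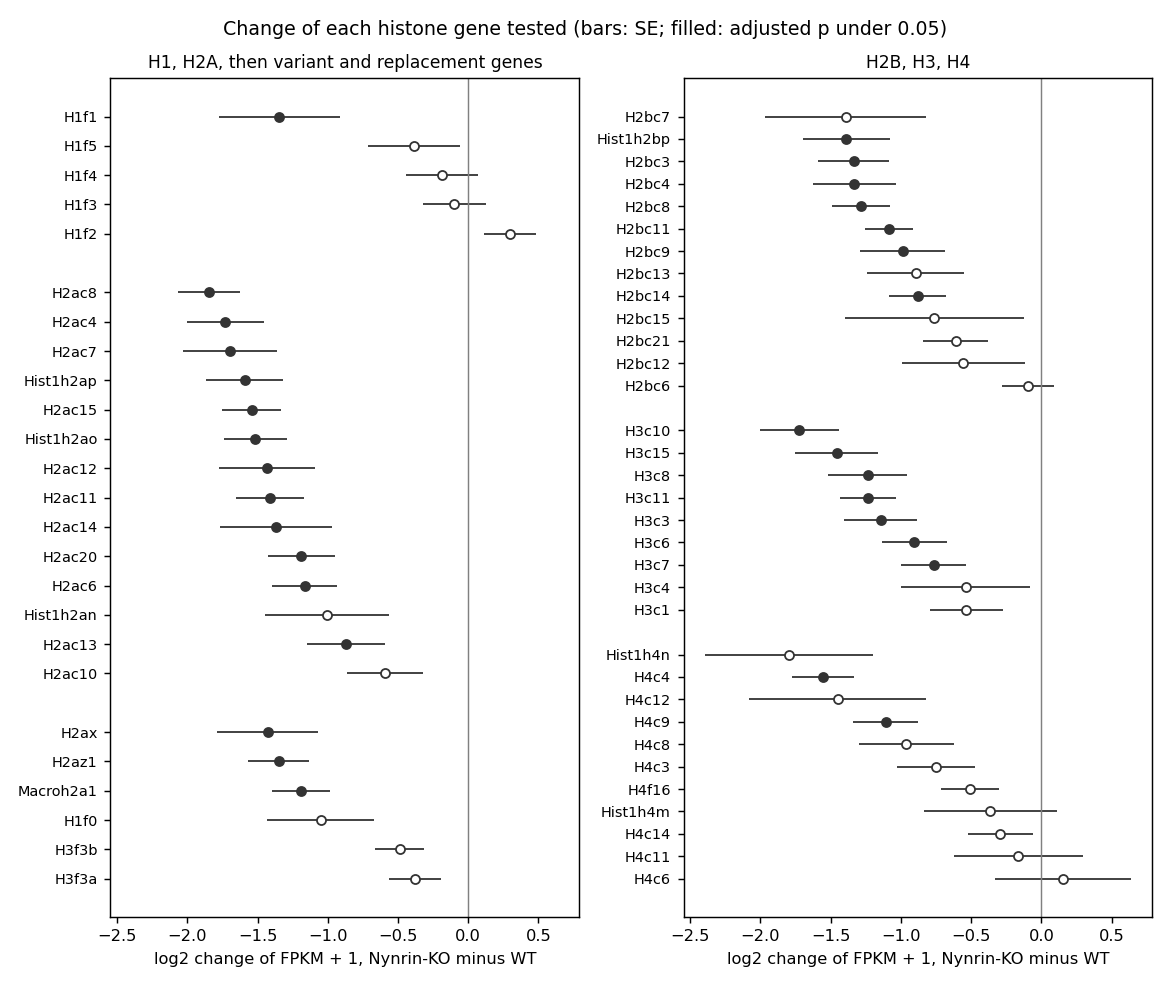
Fitted log2 change of FPKM + 1, Nynrin-KO minus WT, with its SE, for each histone gene tested, by family, with variant and replacement genes at the bottom left. Filled points passed an adjusted p of 0.05, and all of these lie below 0, while H1f2 and H4c6 lie above 0 and did not pass.

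Of the 5 replication-dependent H1 genes, H1f1 alone fell, where 13.8% of all genes tested did. The median log2 change of the 5 was -0.19. H1f2, the most abundant, stood at 11.8, 9.53, 8.07 and 12.8 FPKM in Nynrin-KO, against 7.61, 7.07, 9.47 and 9.19 FPKM in WT, and the groups overlapped (log2 change 0.30, SE 0.19, adjusted p = 0.263). It was the single replication-dependent member whose mean was higher in Nynrin-KO. H1f5 stood at 3.69, 3.56, 1.47 and 4.64 FPKM in Nynrin-KO, against 5.69, 3.23, 2.74 and 7.26 FPKM in WT, with overlap (log2 change -0.39, SE 0.33, adjusted p = 0.411). H1f1 stood at 0.996, 2.75, 0 and 2.16 FPKM in Nynrin-KO, against 6.61, 6.67, 3.44 and 2.82 FPKM in WT. The groups were just apart (log2 change -1.35, SE 0.43, adjusted p = 0.0454), and the 0 in KO3 allows up to 2.22 FPKM. The count of H1 genes that fell was 0 without WT1, WT2, WT3, KO1, KO3 or KO4. The H1 sums were 19.5, 19.7, 12.7 and 23.5 FPKM in Nynrin-KO, against 24.02, 20.6, 19.4 and 23.5 FPKM in WT. H1f0, the replacement linker histone of slowly dividing and differentiated cells, stood at 15.1, 14.6, 4.79 and 13.4 FPKM in Nynrin-KO, against 18.5, 16.1, 33.2 and 32.6 FPKM in WT, and did not pass although the groups did not overlap (log2 change -1.05, SE 0.38, adjusted p = 0.0687).

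Of the 5 variant genes 3 fell, where 13.8% of all genes tested did, and the H3.3 genes did not pass. H2az1, which encodes H2A.Z, a variant found at promoters, stood at 609, 484, 572 and 848 FPKM in Nynrin-KO, against 1781, 1598, 1547 and 1376 FPKM in WT. The groups were far apart, and the log2 change was -1.35 (SE 0.22, adjusted p = 0.00329). Of the 50-base windows of H2az1 69.6% also occur in another gene, so its level alone is uncertain. Macroh2a1, which encodes macroH2A with its large additional domain, stood at 13.4, 17.8, 11.3 and 13.3 FPKM in Nynrin-KO, against 42.5, 33.8, 28.8 and 27.6 FPKM in WT, and fell by 1.19 (SE 0.20, adjusted p = 0.00422). H2ax, which encodes H2A.X, the variant phosphorylated at DNA breaks, stood at 41.7, 51.4, 18.2 and 43.3 FPKM in Nynrin-KO, against 91.8, 90.3, 160 and 72.3 FPKM in WT. It fell by 1.43 (SE 0.36, adjusted p = 0.0182), a call lost without WT1 and KO1 (adjusted p = 0.0684) and without a filter (adjusted p = 0.0556). H2ax mRNA can end in the stem-loop or in a poly(A) tail, and which form gave these reads is not shown by the values.

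H3f3a and H3f3b encode the same protein, H3.3, which replaces H3 outside replication. H3f3b stood at 750, 879, 674 and 805 FPKM in Nynrin-KO, against 1124, 975, 1098 and 1153 FPKM in WT, without overlap (log2 change -0.49, SE 0.17, adjusted p = 0.0641). H3f3a stood at 341, 388, 323 and 422 FPKM in Nynrin-KO, against 528, 532, 412 and 445 FPKM in WT, with overlap (log2 change -0.38, SE 0.19, adjusted p = 0.160). The direction of both depended on the scaling, since quantile normalization gave 0.12 for H3f3b and 0.27 for H3f3a, neither of which passed. H3f3b passed with voom on recovered reads (log2 change -0.48, adjusted p = 0.0382).

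Set against these replacement genes, the replication-dependent H3 genes summed to 3.86%, 2.90%, 3.70% and 3.21% of the FPKM of H3f3a and H3f3b together in KO1 to KO4, against 7.37%, 5.91%, 5.41% and 4.21% in WT1 to WT4. The means were 3.42% ± 0.439 in Nynrin-KO and 5.72% ± 1.31 in WT (SD, n = 4 each), and the groups did not overlap. The replication-dependent genes together were 21.9% ± 2.84 of the 5 variant genes in Nynrin-KO and 32.6% ± 4.74 in WT, again without overlap. A ratio within a library does not depend on a linear scaling between libraries. The difference in ratio was not tested, because the sets were chosen with results known, and 3 of the 5 variant genes had log2 changes below the replication-dependent median.

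Of other histone genes listed, with symbols outside the rule (H2aj, H2az2, H2bu2, H2aw, Cenpa and genes at lower levels), 5 were tested and 2 fell. These were H2bu2 (log2 change -1.92, adjusted p = 0.00759) and H2aj (log2 change -1.44, adjusted p = 0.0185). H2aw, H2az2 and the centromeric H3 gene Cenpa did not pass. Which of the listed genes are replication-dependent rather than variant was not checked. Among all genes tested 13.8% fell.

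The replication-dependent members lay in a few clusters. On chromosome 13, 19 lay between 21715763 and 21837530, 5 between 22035164 and 22043676, and 27 between 23531050 and 23764406, with Hist1h2al apart. The median over genes of the mean level was 2.99 FPKM in Nynrin-KO and 5.54 FPKM in WT in the first of these blocks, 7.70 FPKM in Nynrin-KO and 17.6 FPKM in WT in the second, and 2.79 FPKM in Nynrin-KO and 6.67 FPKM in WT in the third. The median was lower in Nynrin-KO in each of the 3 blocks. Another 4 members lay on chromosome 3 between 96220361 and 96263311, of which H2ac20 and H3c15 fell and H2bc21 and H4c14 did not pass, and H4f16 lay on chromosome 6.

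Annotated 3′ ends differed among the members, and this grouping was chosen after the values were seen. Where the transcript model ended within 200 bases of the stem-loop, 12 of 19 genes tested fell, with a median log2 change of -1.28. Where it ran on for more than 200 bases, 7 of 16 fell, with a median of -0.64, and without a stem-loop in the model 10 of 17 fell, with a median of -1.24. By length, 6 of 14 genes with a model of at least 1000 bases fell (median -0.57), among them H4c4 and H2ac6, and 23 of 38 with a shorter one (median -1.21). The long models include H1f2, H1f3, H1f4 and H2bc6, which did not pass. The groups of genes also differed in histone family and in level. The median over genes of the mean WT level was 10.1 FPKM where the model ended within 200 bases. It was 5.15 FPKM where the model ran on and 4.885 FPKM without a stem-loop. By length it was 4.93 FPKM for the long models and 7.33 FPKM for the shorter ones. The parts of family and level were not tested, and the groups of genes were not compared by a test. The deposited values do not show which 3′ end the captured molecules had. Members that share over 50% of their 50-base windows with another gene fell in 16 of 25 cases, and the rest in 13 of 27 (median log2 changes -1.37 and -0.77).

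**Figure D4:**
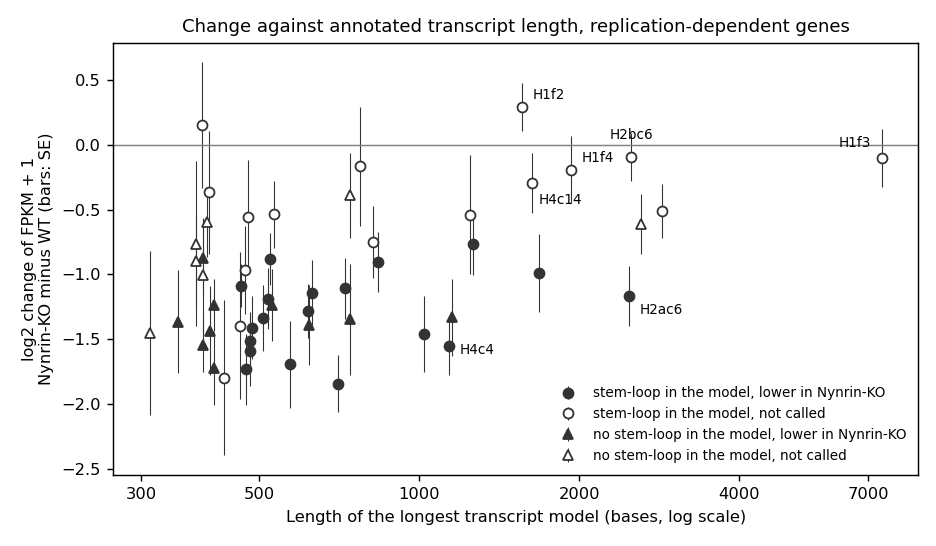
Fitted log2 change, Nynrin-KO minus WT, with its SE, of each replication-dependent gene tested, against the length of its longest transcript model in bases (log axis). Circles have the stem-loop in the model and triangles do not, filled symbols fell in Nynrin-KO, and the genes nearest or above 0 at long lengths are H1f2, H1f3, H1f4 and H2bc6.

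Genes that serve the histone supply were read from the same fit. Of 13 tested genes of histone mRNA transcription and processing 1 fell and 1 rose. Among all 12524 genes tested 13.8% fell and 1754 genes rose. Slbp, which encodes the stem-loop binding protein, did not pass (log2 change -0.33, adjusted p = 0.154), nor did Npat, which encodes the transcription coactivator of these genes (0.00, adjusted p = 0.994). Cstf2, a cleavage stimulation factor gene, fell by 0.81 (adjusted p = 0.0358), a call lost when WT1, WT2, WT4, KO1, KO2 or KO3 was left out. Tut7, which encodes a uridyltransferase that tails RNA, rose by 1.03 (adjusted p = 0.00475). Of 22 tested histone chaperone genes 9 fell, where 13.8% of all genes tested did, and 0 rose, with a median log2 change of -0.53. They included Npm1 (log2 change -2.50, adjusted p = 0.00150), Rbbp7 (-1.73, adjusted p = 0.00357), Nap1l1 (-1.29, adjusted p = 0.00474) and Anp32e, which encodes an H2A.Z chaperone (-1.39, adjusted p = 0.00735). The chaperone count was 3 without WT1 and KO1 and 4 with median ratio scaling.

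Of 18 S phase genes tested 9 fell, where 13.8% of all genes tested did. In this list 1 rose (E2f2, log2 change 0.996, adjusted p = 0.0248) and 8 did not pass, with a median log2 change of -0.80. Those with the smallest p were the replicative helicase genes Mcm2, Mcm6, Mcm3 and Mcm7, with log2 changes of -1.21, -1.80, -1.52 and -1.60 (adjusted p = 0.00408, 0.00466, 0.00747 and 0.0101). The summed S phase level was 426 to 671 FPKM in Nynrin-KO and 749 to 1592 FPKM in WT, so that it separated the groups as the histone sum did. Without WT1 and KO1 5 of these genes fell. Its part in the histone result was not tested.

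The libraries differed in other ways beside genotype, and their part in the histone result was not tested except where a value is given. Recovered depth was 1826967 to 28700729 reads in Nynrin-KO and 1962555 to 33087431 reads in WT. The replication-dependent members took 456 to 8345 reads in Nynrin-KO and 1254 to 29559 in WT, and in the shallowest libraries 14 of the 57 were at 0 in KO3 and 5 in WT3. Without WT3 and KO3, 36 of 52 fell, where 18.3% of all genes tested did. WT1, the deepest library, was the highest WT library for 34 of the 57. It also had the lowest WT sum of the mature neutrophil genes given below, 3002 FPKM against 55460 to 104600 FPKM in WT2 to WT4. Its S phase sum (1592 FPKM) and its Cd34 level (151 FPKM) were the highest in WT. Without WT1 and KO1, 19 of 50 replication-dependent members fell, where 7.15% of all genes tested did. Nynrin itself was at 0.0982 to 0.437 FPKM in Nynrin-KO and 0.008 to 0.286 FPKM in WT, too low to check the labels. Xist was at 0.0175 to 12.7 FPKM in Nynrin-KO and 15.2 to 26.5 FPKM in WT, and the Y-linked gene Ddx3y at 2.18 to 20.7 FPKM in Nynrin-KO and at most 0.111 FPKM in WT, and KO1 held both, so that differences by genotype and by sex cannot be told apart. Gm10800, a gene model resembling satellite repeats, took at least 10000 FPKM in 5 libraries (KO1, KO3, WT2, WT3 and WT4). Within these, 8 of 46 replication-dependent members fell, where 6.42% of all genes tested did, with a median log2 change of -0.95.

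Markers of the sorted cells and of other cell types were read from the same fit. Kit, a marker of the gate, did not pass (log2 change -0.30, adjusted p = 0.405). Cd34 fell by 3.48 (adjusted p = 0.000929), and Hoxa9 and Meis1 rose by 1.08 and 1.33 (adjusted p = 0.0397 and 0.00466). Meis1 reached 1 FPKM in no WT library, so the filter fixed its direction. Of 12 mature neutrophil genes 7 rose and 0 fell, where 1754 of all 12524 genes tested rose. None of these neutrophil genes was at 0 in any library. Their summed level was 125000 to 283600 FPKM in Nynrin-KO and 3002 to 104600 FPKM in WT. All genes of the table together summed to 613700 to 820600 FPKM in Nynrin-KO and 561500 to 732000 FPKM in WT. Among the neutrophil genes Ly6g, which encodes the Gr-1 antigen that the gate excluded, rose by 3.23 (SE 0.98, adjusted p = 0.0381). It stood at 264, 182, 190 and 93.5 FPKM in Nynrin-KO, against 0.707, 32.7, 49.3 and 38.7 FPKM in WT, without overlap. Of 6 macrophage genes 5 rose and Adgre1 did not pass (log2 change -0.02, adjusted p = 0.968), with a sum of 248 to 703 FPKM in Nynrin-KO and 46.1 to 73.1 FPKM in WT. All 3 mast cell genes rose, with a sum of 42.5 to 103 FPKM in Nynrin-KO and 2.03 to 5.66 FPKM in WT, and Ms4a2 and Cpa3 were each at 0 in 1 WT library. Ms4a2 reached 1 FPKM in no WT library, so the filter fixed its direction. Of 6 erythroid genes 3 were tested and rose, with a sum of 7.75 to 35.3 FPKM in Nynrin-KO and 0.202 to 2.50 FPKM in WT. Those 3, Hbb-bs, Hba-a1 and Car2, reached 1 FPKM in no WT library, so the filter fixed their direction. Klf1 was at 0 in 2 Nynrin-KO libraries, and in WT Hbb-bs was at 0 in 3 libraries, Car1 in 2 and Hba-a1 in 1. The part of the macrophage, mast cell and erythroid genes in the histone result was not tested. With the mean log2 level of the mature neutrophil genes as a covariate, 0 of 52 replication-dependent members passed in limma, and 11 genes passed in the whole table. In that fit 20 members had an unadjusted p under 0.05, 45 of 52 changes were below 0, and their median was -0.79.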

How the data were processed

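RNA was measured in 4 Nynrin-KO and 4 WT libraries, grouped by genotype label. The authors deposited 1 table of values per gene. The deposited values are FPKM, a reading taken from the values because the header names no unit: multiplied by the longest GENCODE M21 transcript length they gave whole reads in 99.42% to 99.51% of cases (tolerance 0.1 read). Per the submitters' processing notes the build was mm10, with Bowtie 0.12.9, Cufflinks 2.1.1 and HTSeq named. How reads were counted, by strand or at several loci, is not stated in the sources used here.

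Differences were fitted on log2(FPKM + 1) with limma 3.58.1 under R 4.3.3, with trend and robust estimation, genotype as the only term, two-sided tests and Benjamini-Hochberg adjustment. This scale understates changes of low genes. Positions, counted from 1, and stem-loops came from GENCODE M21 (GRCm38), with Python 3.11.15, numpy 2.4.6, pandas 2.3.3 and matplotlib 3.10.9. The limma script was tested on simulated data. The level of 3 reads was used as the floor and covers counting error only.

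The members and lists were chosen with earlier results of these data known, among them falls of several of these histone genes and of S phase genes, so these patterns are no independent support. Genes are named by a rule. It takes all 5 variant genes, the 14 replication-dependent genes with the smallest p among those past the threshold, the 2 with the highest mean in each family, and up to 4 genes of each list by p. Other members and list genes in the text, such as H2bc6, H1f1, H1f0 and the head-to-head pairs, were chosen after their values were seen. Alternatives covered the pseudocount, filter, scaling, limma's options, weights, replicate block, libraries left out and threshold. Voom was run as an alternative on reads recovered from the values. Other tests for count tables were not run, because the table holds FPKM.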

Additional observations from a re-analysis of the deposited data

Results flagged for a closer look

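Among the 24 named members, the 4 libraries of each group were examined for a library far from the others, 48 groups in all, and 3 had such a library. By chance about 1 group in 20 would. The gap to the nearest library was 0.866 of the range for H2ac15 in KO1, at 19.6 FPKM where the other Nynrin-KO libraries held 17.9 to 18.1. It was also 0.866 for H2ac4 in KO1, at 16.3 FPKM where the others held 8.71 to 9.72. For H2ac11 in KO4 it was 0.881, at 15.2 FPKM where the others held 20.2 to 20.9. In all 3 cases the library still lay below every WT library.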

How the results depend on the processing

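In 23 alternatives, 3 of them chosen after seeing the data, no replication-dependent histone gene rose, and the count that fell ranged from 0 to 36. It was 17 at an adjusted p under 0.01, 19 without WT1 and KO1, 8 in the 5 libraries high in Gm10800 and 0 with the mature neutrophil level as a covariate, where 0 variant genes passed too. The first of these has a stricter limit by construction. For the fits with libraries left out and for the covariate the cause of the lower count was not tested. Leaving out WT3 and KO3 instead gave 36. Leaving out each library gave 25 to 33 genes that fell, 3 variant genes and medians of -1.18 to -0.99. Genes changed in the whole table, 3488 in the report's fit, came to 1698 without a filter, 2132 with median ratio scaling, 1454 at an adjusted p under 0.01, 1579 without WT1 and KO1, 925 in the 5 libraries and 11 with the covariate, and to 2358 to 3606 with each library left out. The share lower among all calls, 49.7%, was 77.2% in the 5 libraries. Quantile normalization turned H3f3a to 0.27 (adjusted p = 0.162) and H3f3b to 0.12 (adjusted p = 0.613). The 20 named members that fell gave 459 values under the alternatives, of which 418 stayed past the threshold, 41 did not, and 0 changed sign. The lost calls were 20 with the covariate, 11 in the 5 libraries and 10 elsewhere. With the replicate number as a block 29 replication-dependent genes fell, 26 of them among the 29 of the report, with 2 variant genes and 2838 genes in all. Libraries of the same number had correlations of deviations of -0.213, -0.389, 0.329 and 0.00756, of both signs. Whether they share more than a number is not shown by these values. The median replication-dependent gene had 3 reads in KO3 and 7 in WT3, which limits what those libraries show of low members.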

Other observations

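Outside the lists, the named genes whose levels followed the replication-dependent histone genes most closely over the 8 libraries, by Pearson correlation with their mean log2 level, were Rpl12 (0.996) and Rack1 (0.995), of the ribosome, Selenoh (0.996), and Cox5b (0.995) and Cox5a (0.994), of cytochrome c oxidase. Rpl12 averaged 12.8 FPKM in Nynrin-KO and 53.8 FPKM in WT, and Cox5b 79.3 FPKM in Nynrin-KO and 197 FPKM in WT. These correlations run across both genotypes and describe the 8 libraries, with no test.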
